A study of Mus musculus with 6 samples.

Results

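Interstitial collagens and fibroblast matrix genes were examined in endothelial cells (ECs) sorted from MC38 tumors, a mouse colon carcinoma grown under the skin. The group was defined by name and holds 10 of the 24346 gene symbols in the deposited tables: Col1a1, Col1a2, Col3a1, Col5a1, Col5a2, Col6a1, Col6a2, Fn1, Dcn and Lum. Tumor ECs from 3 wild-type (WT) C57BL/6 samples were set against tumor ECs from 3 Apelin-knockout (Apelin-KO) samples on the same background, from young adult mice that received the same cancer cells. The knockout was genetic and not limited to ECs by any label. The labels also name saline for all 6 samples, without saying how it was given. Cells positive for CD31, a surface protein of ECs, and negative for CD45, a surface protein of hematopoietic cells, were sorted and their mRNA was sequenced. No label or method says whether a sample came from 1 mouse or from a pool, so the p-values below measure the spread between these samples.

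Fibrillar collagens form the load-bearing fibres of the tumor stroma and are made mostly by fibroblasts and, to a lesser degree, by pericytes. Collagens are triple helices of chains. Col3a1 alone supplies all chains of collagen III, whereas Col1a1 and Col1a2 chains assemble into collagen I, Col5a1 and Col5a2 chains into collagen V, and Col6a1, Col6a2 and Col6a3 chains into collagen VI. Decorin (Dcn) and lumican (Lum) are small leucine-rich proteoglycans that coat collagen fibrils and set their spacing. Fibronectin (Fn1) is the exception in this group, since angiogenic ECs are themselves known to produce it.

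The values are FPKM, fragments per kilobase of transcript and scaled to the number of mapped reads, which are levels per length and can be compared between genes. The FPKM of a sample summed to between 489396 and 529018. The depth, estimated from the step that a read makes in low FPKM, lay between 8910000 and 10080000 reads per sample. Where values are listed by sample, they follow the order of replicates 1, 2 and 3 in each genotype. Apln, which encodes Apelin, was at 432, 435 and 504 FPKM in the WT samples against 9.96, 17.5 and 24.3 FPKM in the Apelin-KO samples. The 10964 genes that averaged 1 FPKM or more were compared on the log2(FPKM + 1) scale with limma and a two-sided test, and a positive log2 fold change means a higher level in WT ECs. This scale understates the differences of genes with low FPKM. Of the 10964 genes, 0.00912% (Apln alone) had an adjusted p-value under 0.05.

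The matrix genes spanned a wide range of levels in tumor ECs. Fn1 was by far the highest, with 448 ± 59.0 FPKM in WT ECs and 511 ± 106 FPKM in Apelin-KO ECs (SD, n = 3 each), and every value of Fn1 lay above every value of the other members. In WT ECs, Col1a1 followed with 142 ± 48.7 FPKM, Col3a1 with 84.4 ± 26.0 FPKM, Col6a1 with 56.1 ± 18.2 FPKM and Dcn with 35.8 ± 5.48 FPKM (SD, n = 3). Lower in the same order came Col6a2 with 26.9 ± 10.8 FPKM, Col1a2 with 15.5 ± 5.86 FPKM, Col5a1 with 8.71 ± 3.14 FPKM, Col5a2 with 3.21 ± 0.957 FPKM and Lum with 0.896 ± 0.994 FPKM (SD, n = 3). The order of the 10 means was the same in Apelin-KO ECs. Neighbours in this order often overlapped between samples. In WT ECs, only 3 of the 9 neighbouring pairs were apart in all samples, namely Fn1 from Col1a1, Col5a1 from Col5a2 and Col5a2 from Lum. In Apelin-KO ECs, 4 of the 9 pairs were apart, namely Fn1 from Col1a1, Col1a1 from Col3a1, Col1a2 from Col5a1 and Col5a2 from Lum.

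**Figure D1:**
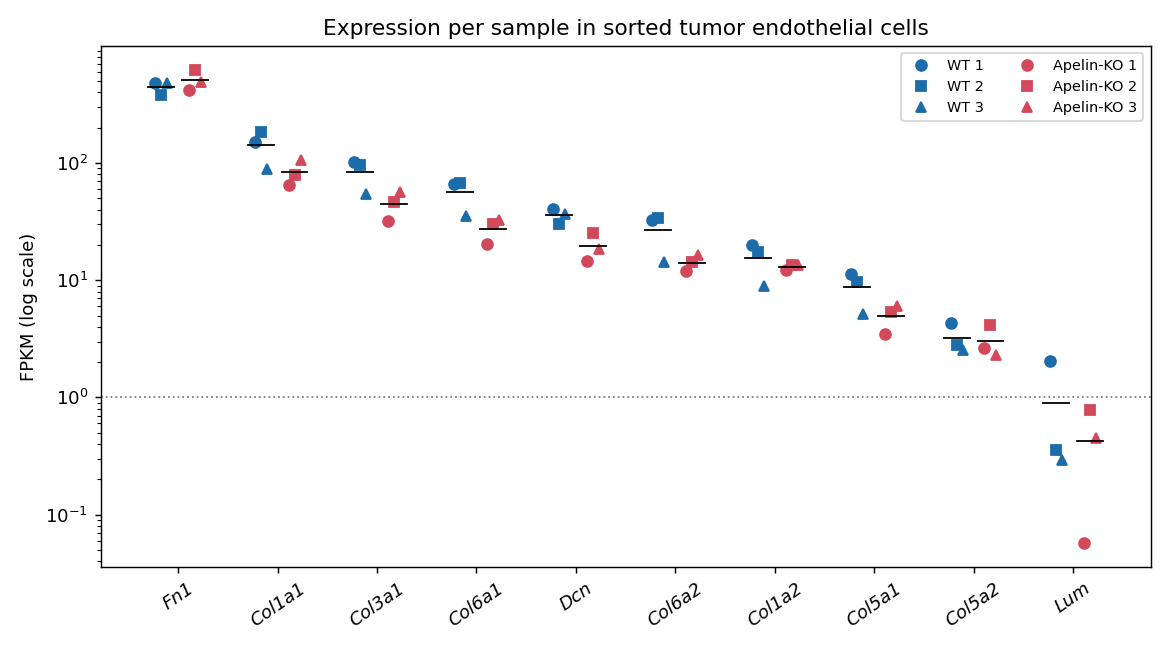
Expression of the 10 matrix genes in each sample, in FPKM on a log axis, with genes ordered by their mean over all samples. Blue symbols are WT and red symbols Apelin-KO samples (circle, square and triangle for replicates 1, 2 and 3), black bars are group means, and the dotted line marks 1 FPKM, under which the mean of Lum lies.

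Dcn and Col6a1 were the members whose levels did not overlap between the genotypes. Dcn, on chromosome 10 of GRCm38 from 97479609 to 97518143, was at 40.9, 30.0 and 36.5 FPKM in the WT samples against 14.7, 25.3 and 18.5 FPKM in the Apelin-KO samples. All WT samples lay above all Apelin-KO samples, whose mean was 54.5% of that in WT. For Dcn the log2 fold change was 0.86 (standard error 0.21, unadjusted p = 0.00417 from limma, adjusted p = 0.501 over all genes tested). Col6a1, which encodes the alpha 1 chain of the beaded-filament collagen VI, lies on chromosome 10 from 76708792 to 76726168 and was at 65.6, 67.6 and 35.1 FPKM in the WT samples. The Apelin-KO samples had 20.2, 30.1 and 32.5 FPKM, so that WT 3 lay just above the highest Apelin-KO sample. The log2 fold change of Col6a1 was 0.97 (standard error 0.29, unadjusted p = 0.0122 from limma, adjusted p = 0.501). For both genes an exact permutation test of 3 against 3 samples gave p = 0.1 (two-sided), the smallest that this design allows.

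A further set of collagen chains was high in WT 1 and WT 2, whereas WT 3 lay among the Apelin-KO samples. Col3a1, the only chain of collagen III, lies on chromosome 1 from 45311538 to 45349706. It was at 103, 95.8 and 54.6 FPKM in the WT samples against 32.3, 46.9 and 56.1 FPKM in the Apelin-KO samples, and its log2 fold change was 0.87 (standard error 0.29, unadjusted p = 0.0192 from limma, adjusted p = 0.501). Col1a1, the major chain of collagen I, lies on chromosome 11 from 94936224 to 94953042. It was at 152, 186 and 89.5 FPKM in the WT samples against 64.5, 79.6 and 106 FPKM in the Apelin-KO samples. Col6a2, the alpha 2 chain of collagen VI, was at 32.4, 33.8 and 14.4 FPKM in the WT samples against 12.0, 14.3 and 16.3 FPKM in the Apelin-KO samples. Col5a1, a chain of collagen V, which nucleates collagen I fibrils, was at 11.2, 9.71 and 5.19 FPKM in the WT samples against 3.44, 5.35 and 6.06 FPKM in the Apelin-KO samples. In each of these genes Apelin-KO 1 was the lowest sample, and WT 3 lay below Apelin-KO 3. The log2 fold changes were 0.73 for Col1a1 (standard error 0.29, unadjusted p = 0.0419), 0.80 for Col6a2 (standard error 0.31, unadjusted p = 0.0390) and 0.67 for Col5a1 (standard error 0.29, unadjusted p = 0.0507), with adjusted p-values from limma of 0.521, 0.516 and 0.525.

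Col1a2, Col5a2 and Fn1 differed between the genotypes by less than the spread between samples. Col1a2, the partner chain of Col1a1, was at 20.1, 17.5 and 8.92 FPKM in the WT samples against 12.3, 13.4 and 13.4 FPKM in the Apelin-KO samples, so that WT held both the highest samples and the lowest. Its log2 fold change was 0.16, with a 95% interval from -0.47 to 0.80 that includes the log2 fold change of Col1a1. The value for Col1a2 was -0.05 without WT 1 and 0.50 without WT 3 (for the latter unadjusted p = 0.00662, adjusted p = 0.230 from limma). Col5a2, the partner of Col5a1, was at 4.31, 2.79 and 2.54 FPKM in the WT samples against 2.65, 4.19 and 2.28 FPKM in the Apelin-KO samples. Its log2 fold change was 0.07 (95% interval from -0.46 to 0.59, adjusted p = 0.946 from limma). Fn1, on chromosome 1 from 71585520 to 71653200, was at 481, 380 and 484 FPKM in the WT samples against 418, 627 and 488 FPKM in the Apelin-KO samples. It was the only tested member with a negative log2 fold change, -0.18 (95% interval from -0.60 to 0.24, adjusted p = 0.781 from limma). This value was -0.02 without Apelin-KO 2, -0.06 without WT 2 and -0.31 without Apelin-KO 1. Fn1 has 17 annotated transcripts, and the gene-level FPKM cannot show which of its splice forms were present.

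Lum was close to the lower limit of these libraries and was not tested, since its mean was 0.662 FPKM. It was at 2.04, 0.355 and 0.290 FPKM in the WT samples against 0.0570, 0.778 and 0.450 FPKM in the Apelin-KO samples. By the estimated depth this amounts to 46.3, 7.11 and 5.93 reads in the WT samples and 1.19, 17.6 and 9.47 reads in the Apelin-KO samples. The mean of WT ECs thus rests on WT 1. For the other members the estimated reads per sample ran from 137 for Col5a2 to 51300 for Fn1. Lum lies 46984 bases from Dcn on the same strand of chromosome 10, with no protein-coding gene annotated between them, and yet its level was between 20 and 258 times lower than that of Dcn in the same sample.

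Among the 9 members tested, 8 had a positive log2 fold change, where 47.5% of all genes tested did, and 5 had an unadjusted p-value under 0.05, all 5 higher in WT ECs (Dcn, Col6a1, Col3a1, Col6a2 and Col1a1). Over all genes tested, 9.42% had an unadjusted p-value under 0.05, and 5.17% had it with a higher level in WT ECs. Groups were apart in all samples for 2 of the 9 members, both with the higher level in WT. Of all genes tested, 14.4% did not overlap, 6.61% with the higher level in WT ECs and 7.77% with the lower. The median log2 fold change was 0.73 over the 9 members and -0.01 over all genes tested. None of the 9 members had an adjusted p-value under 0.05 in limma, where the range was 0.501 to 0.946. The members are not independent of each other, since the same samples were high or low in most of them: WT 1 or WT 2 was the highest sample for 9 of the 10 members, and Apelin-KO 1 was the lowest for 7. The count of 5 depended on the samples included. It was 2 without WT 1 (6.07% of all genes), 2 without WT 2 (4.91%), 2 without Apelin-KO 1 (9.0%) and 3 without Apelin-KO 2 (10.7%). It was 5 without Apelin-KO 3 (6.78%) and 7 without WT 3 (11.2%). Without WT 3, WT and Apelin-KO were apart for 7 of the 9 members, where 30.0% of all genes did not overlap, and without Apelin-KO 3 for 5 of the 9, where 22.8% of all genes did not.

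**Figure D2:**
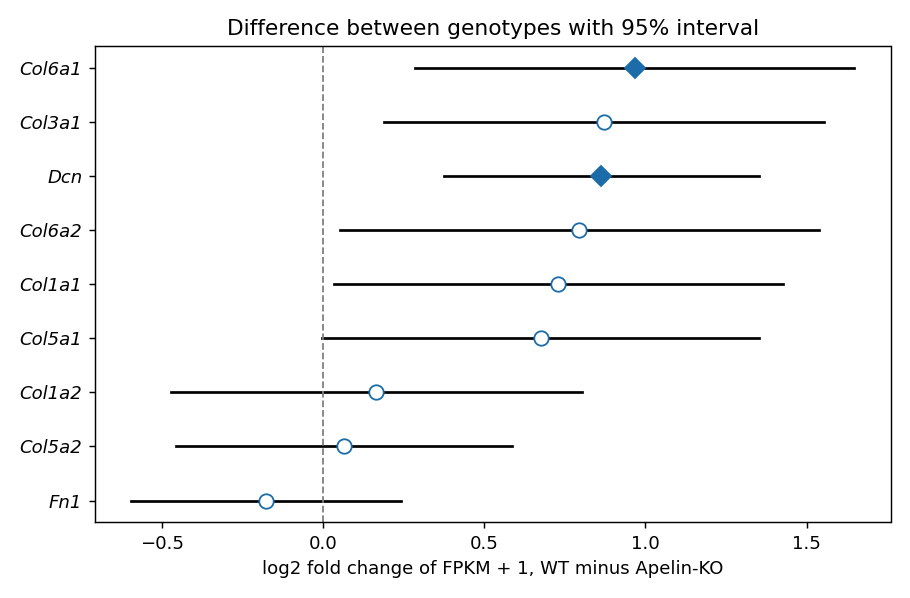
Log2 fold change of FPKM + 1, WT minus Apelin-KO, for the 9 members tested, with its 95% interval from limma (3 samples per genotype). Filled diamonds mark Col6a1 and Dcn, whose groups did not overlap, and open circles mark genes whose groups overlapped. The intervals are not adjusted for the number of genes tested.

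The ratio between chains within a sample is free of differences in scaling between samples. Col3a1 and Col1a1 kept a nearly fixed proportion: the ratio of their FPKM was 0.677, 0.516 and 0.610 in the WT samples against 0.5004, 0.589 and 0.529 in the Apelin-KO samples. The highest ratio was 1.35 times the lowest, whereas the highest level was 3.18 times the lowest for Col3a1 and 2.88 times for Col1a1. The ratio of Col6a1 to Col6a2 was similarly narrow, at 2.03, 2.001 and 2.43 in the WT samples against 1.69, 2.11 and 1.999 in the Apelin-KO samples. The chains of collagen I were less tightly tied. The ratio of Col1a1 to Col1a2 was 7.54, 10.6 and 10.04 in the WT samples against 5.26, 5.92 and 7.91 in the Apelin-KO samples, so that Col1a1 exceeded its partner in every sample and the genotypes overlapped at WT 1 and Apelin-KO 3. For Col5a1 to Col5a2 the ratio was 2.61, 3.48 and 2.04 in the WT samples against 1.30, 1.28 and 2.66 in the Apelin-KO samples. None of the 5 ratios compared, that of Dcn to Lum included, reached p = 0.05 between the genotypes in an exact permutation test (two-sided, unadjusted p between 0.2 and 0.9, adjusted over the 5 ratios between 0.5 and 0.9, where 0.1 is the smallest unadjusted p possible with 3 against 3 samples).

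**Figure D3:**
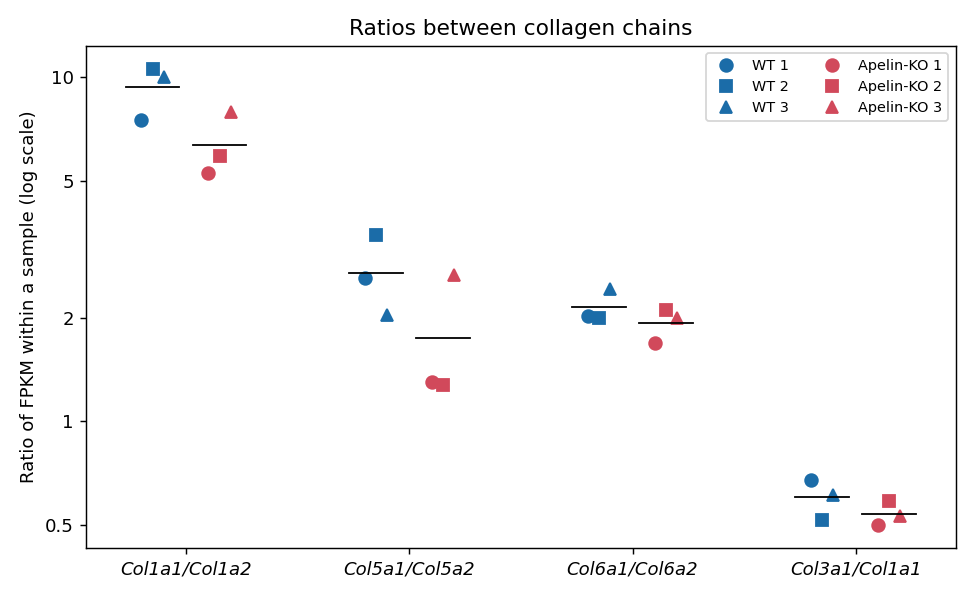
Ratio of FPKM between collagen chains within each sample, on a log axis. Blue symbols are WT and red symbols Apelin-KO samples (circle, square and triangle for replicates 1, 2 and 3), and black bars are group means. Col6a1 to Col6a2 and Col3a1 to Col1a1 stay within narrow bands, whereas Col1a1 to Col1a2 runs from 5.26 to 10.6.

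Some of these genes are neighbours in the genome. Col3a1 and Col5a2 lie on opposite strands of chromosome 1, 24614 bases apart, and Col6a1 and Col6a2 lie on the same strand of chromosome 10, 85161 bases apart, with no protein-coding gene annotated between the members of either pair. Col6a1 and Col6a2 ran in parallel over the 6 samples, whereas Col3a1 and Col5a2 did not: the samples spread 3.18-fold for Col3a1 and 1.89-fold for Col5a2. The RefSeq promoter table (GRCm38.p6) holds 5 of the 10 members. The 250 bases before the annotated start are shown for these 5 collagen chains, all of which were highest in WT 1 and WT 2. The start is that of the RefSeq table, which differs from the outer end of the GENCODE gene for Col1a2, Col6a1 and Col6a2, so that their printed windows lie partly or wholly within the GENCODE gene. Col6a2 has another window in the table, which is not printed. Capitals mark the letters TATAAA of a TATA box, the letters CCAAT of the box of that name, the letters GGGCGG of a GC box and the letters TGANTCA of the AP-1 motif, all searched on both strands, so that a motif on the opposite strand appears as its reverse complement.
Col3a1 (chr1:45311288-45311537, plus strand): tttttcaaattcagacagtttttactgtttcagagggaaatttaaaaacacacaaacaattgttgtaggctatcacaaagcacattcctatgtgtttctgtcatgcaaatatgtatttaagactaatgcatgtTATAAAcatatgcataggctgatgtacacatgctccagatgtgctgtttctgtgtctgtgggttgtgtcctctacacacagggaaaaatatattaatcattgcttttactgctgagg
Col6a1 (chr10:76726045-76726294, minus strand): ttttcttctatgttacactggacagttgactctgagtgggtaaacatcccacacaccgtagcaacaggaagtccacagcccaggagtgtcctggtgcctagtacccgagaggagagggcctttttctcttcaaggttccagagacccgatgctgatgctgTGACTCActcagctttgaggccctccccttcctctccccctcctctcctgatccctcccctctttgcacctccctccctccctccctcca
Col6a2 (chr10:76623405-76623654, minus strand): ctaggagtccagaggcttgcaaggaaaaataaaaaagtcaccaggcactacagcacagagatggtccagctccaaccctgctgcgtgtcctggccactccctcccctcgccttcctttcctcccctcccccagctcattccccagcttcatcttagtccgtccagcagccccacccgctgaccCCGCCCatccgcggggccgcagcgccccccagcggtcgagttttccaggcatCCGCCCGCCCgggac
Col5a1 (chr2:27886175-27886424, plus strand): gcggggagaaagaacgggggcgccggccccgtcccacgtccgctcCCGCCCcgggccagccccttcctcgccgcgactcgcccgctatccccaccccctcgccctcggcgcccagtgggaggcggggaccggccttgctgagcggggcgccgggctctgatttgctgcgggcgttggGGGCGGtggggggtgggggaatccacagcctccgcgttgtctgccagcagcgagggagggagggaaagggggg
Col1a2 (chr6:4505368-4505617, plus strand): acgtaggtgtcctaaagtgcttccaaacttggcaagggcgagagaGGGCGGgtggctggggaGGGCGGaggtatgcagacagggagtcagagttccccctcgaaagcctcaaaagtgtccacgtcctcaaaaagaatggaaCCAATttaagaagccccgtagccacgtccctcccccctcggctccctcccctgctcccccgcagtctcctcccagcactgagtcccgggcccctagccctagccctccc

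The windows were unlike each other in composition. Bases G and C made up 35.2% of the Col3a1 window, 56.0% of that of Col6a1, 62.0% of that of Col1a2, 64.4% of the printed window of Col6a2 and 76.4% of that of Col5a1, against a median of 52.4% over 32851 windows of the same length. TATAAA was found in the Col3a1 window, starting 117 bases before the annotated start, and in 12.4% of all windows. TGANTCA was found in the Col6a1 window, 90 bases before the start, and in 6.75% of all windows. Col1a2 held CCAAT, which 33.8% of all windows hold, and Col1a2, Col5a1 and both windows of Col6a2 held GGGCGG, which 32.7% of all windows hold. Col3a1 and Col6a1 held none of the other motifs searched. These matches are letters only, and no binding was measured.

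The other genes of matrix production did not follow a common direction. Of 10 further interstitial collagens, 4 were high enough to be tested, and all 4 had a positive log2 fold change, with a median of 0.32. The median was 0.21 without WT 1, 0.16 without WT 2 and 0.55 without WT 3. Among them Col6a3, the alpha 3 chain of collagen VI, was at 9.48, 10.5 and 6.27 FPKM in the WT samples against 5.24, 6.16 and 6.19 FPKM in the Apelin-KO samples, without overlap but with WT 3 only just above (log2 fold change 0.48, unadjusted p = 0.0330, adjusted p = 0.513 from limma). Col6a5 and Col6a6 were listed at 0 in all samples. Of 23 genes for the folding, modification and crosslinking of collagen, 19 were tested, with a median log2 fold change of -0.06 (-0.02 without WT 2, -0.04 without WT 3 and -0.11 without Apelin-KO 1), 1 higher (Adamts14, a procollagen N-proteinase) and 1 lower (P3h2, a prolyl 3-hydroxylase) in WT at unadjusted p under 0.05, against 5.17% and 4.25% of all genes. The collagen chaperone Serpinh1 was at 613 ± 42.2 FPKM in WT ECs and 690 ± 32.0 FPKM in Apelin-KO ECs (SD, n = 3), above all collagen chains of the group in both genotypes. The enzyme list summed to between 2140 and 2251 FPKM in the WT samples and between 2287 and 2451 FPKM in the Apelin-KO samples.

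Among 10 other small leucine-rich proteoglycans, 3 were tested and Bgn was the highest. Bgn, which encodes biglycan, the closest relative of decorin, ran in the direction opposite to Dcn, with 76.7, 89.3 and 82.3 FPKM in the WT samples against 154, 82.4 and 168 FPKM in the Apelin-KO samples. Apelin-KO 2 lay among the WT samples, and the log2 fold change was -0.64 (standard error 0.26, unadjusted p = 0.0455, adjusted p = 0.525 from limma). Kera and Epyc, which lie near Lum and Dcn in the genomes of mammals, were listed at 0 in all samples. Of 18 fibroblast matrix glycoproteins, 12 were tested and 2 were higher in WT at unadjusted p under 0.05, against 5.17% of all genes. The median log2 fold change was 0.27, and it was 0.06 without WT 1 and 0.43 without WT 3. The 2 genes were Emilin1, an elastin-associated glycoprotein, with a log2 fold change of 0.39, and Igfbp6, a secreted binder of insulin-like growth factors, with 0.96, both with an adjusted p of 0.501 from limma. Sparc, a collagen-binding glycoprotein that ECs also make, was at 3713 ± 652 FPKM in WT ECs and 4362 ± 262 FPKM in Apelin-KO ECs (SD, n = 3).

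The matrix of the vessel wall itself was set beside the interstitial collagens. All 12 basement membrane genes tested, which include Col4a1 and Col4a2 (collagen IV), had a negative log2 fold change, with a median of -0.25, and 2 of them (Lamb2 and Nid1, both structural parts of the basement membrane) were lower in WT at unadjusted p under 0.05, against 4.25% of all genes. Their FPKM summed to between 4028 and 5367 in the WT samples and between 5488 and 5832 in the Apelin-KO samples, without overlap. The levels of single genes overlapped with those of the interstitial chains, since Hspg2, a heparan sulfate proteoglycan, was at 114 ± 9.07 FPKM and Lamb2 at 24.4 ± 0.892 FPKM in WT ECs (SD, n = 3), both below Col1a1. The endothelial markers shifted by a similar amount, with all 15 negative and a median of -0.22. Without WT 2 the medians were -0.17 for the basement membrane genes and -0.13 for the endothelial markers.

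Markers of fibroblasts were present at low levels. Of 16 listed, 6 were tested, 4 with a positive and 2 with a negative log2 fold change, and their median was 0.35, or -0.16 over those with a mean of at least 5 FPKM. This median was 0.02 without WT 1 and 0.13 without Apelin-KO 1. Pdgfra, a receptor that marks fibroblasts, was at 3.86, 2.80 and 1.83 FPKM in the WT samples against 1.003, 1.27 and 2.27 FPKM in the Apelin-KO samples, with a log2 fold change of 0.60. Prrx1, a transcription factor of mesenchymal cells, was at 1.42 ± 0.521 FPKM in WT ECs and 0.744 ± 0.243 FPKM in Apelin-KO ECs (SD, n = 3), without overlap and with a log2 fold change of 0.46. The unadjusted p was 0.0455 for Pdgfra and 0.0368 for Prrx1 in limma (adjusted p = 0.525 and 0.515). On the negative side were Pdgfrb, a receptor of fibroblasts and pericytes, with -0.29 and Cthrc1, a secreted protein of activated fibroblasts, with -0.16, and Tcf21 was listed at 0 in all samples. The 16 markers summed to between 29.9 and 54.7 FPKM in the WT samples and between 29.2 and 45.0 FPKM in the Apelin-KO samples. The 20 hematopoietic markers, of which 17 were tested, summed to 670, 1136 and 325 FPKM in the WT samples against 147, 397 and 352 FPKM in the Apelin-KO samples. All 17 had a positive log2 fold change (47.5% of all genes), with a median of 1.19, and 8 were higher in WT at unadjusted p under 0.05 (5.17% of all genes), namely Ptprc, Adgre1, Itgam, Tyrobp, Cd52, Mrc1, Spi1 and C1qa. Of these Ptprc, which encodes CD45, was at 3.08 ± 1.79 FPKM in WT ECs and 0.826 ± 0.829 FPKM in Apelin-KO ECs (SD, n = 3). WT 1 and WT 2 were the highest samples and Apelin-KO 1 the lowest for this list, as they were for Col3a1, Col6a1, Col6a2, Col1a1 and Col5a1. In WT 3, Dcn was at 36.5 FPKM, between its levels in WT 1 and WT 2 and above every Apelin-KO sample. Col6a1, Col6a3 and the hematopoietic markers Tyrobp and Spi1 in WT 3 also lay above every Apelin-KO sample, but below WT 1 and WT 2. The hematopoietic markers of WT 3 summed to less than those of Apelin-KO 2 and 3. The part of these other cells in the differences of the collagens was not tested.

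The sorted cells carried the markers of ECs in every sample. All 15 endothelial markers were tested, among them Pecam1, which encodes CD31, at 604 ± 60.5 FPKM in WT ECs and 760 ± 79.5 FPKM in Apelin-KO ECs (SD, n = 3). Pecam1, Cdh5, Tie1 and Ptprb, all membrane proteins of ECs, were lower in WT at unadjusted p under 0.05 (4.25% of all genes), with adjusted p-values from 0.509 to 0.513 in limma. The list summed to between 4543 and 5375 FPKM in the WT samples and between 5476 and 5770 FPKM in the Apelin-KO samples, without overlap. The 13 pericyte markers overlapped in sum, with 580 to 749 FPKM in the WT samples and 653 to 763 FPKM in the Apelin-KO samples. Mcam alone was at 513 ± 67.0 FPKM in WT ECs and 510 ± 68.2 FPKM in Apelin-KO ECs (SD, n = 3). The sums therefore mostly follow Mcam and say little about the other pericyte markers. Of the 9 tested, 3 had a positive and 6 a negative log2 fold change, with a median of -0.26, which was -0.13 without WT 2. Cspg4 with 0.35, Tagln with 0.30 and Mcam with 0.01 were the positive ones, and 3 of the others were lower in WT at unadjusted p under 0.05, against 4.25% of all genes. Rgs5, a regulator of G-protein signalling, was at 3.44 ± 0.246 FPKM in WT ECs and 7.79 ± 0.923 FPKM in Apelin-KO ECs (SD, n = 3), with a log2 fold change of -0.98 and an adjusted p of 0.214 from limma (unadjusted p = 5.86e-05). The others were Ndufa4l2 with -0.66 and Higd1b with -1.39, both with an adjusted p of 0.501. Of 15 epithelial tumor cell markers, only Krt20 reached a mean of 1 FPKM, with 8.82 ± 2.27 FPKM in WT ECs and 13.7 ± 6.22 FPKM in Apelin-KO ECs (SD, n = 3), overlapping between the genotypes. The next was Vil1 with 0.882 ± 0.518 FPKM in WT ECs and 0.677 ± 0.259 FPKM in Apelin-KO ECs (SD, n = 3), and Cdx2 and Cldn3 were listed at 0 in all samples. In bulk samples such as these, fewer cells of a type and less RNA per cell cannot be told apart.

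**Figure D4:**
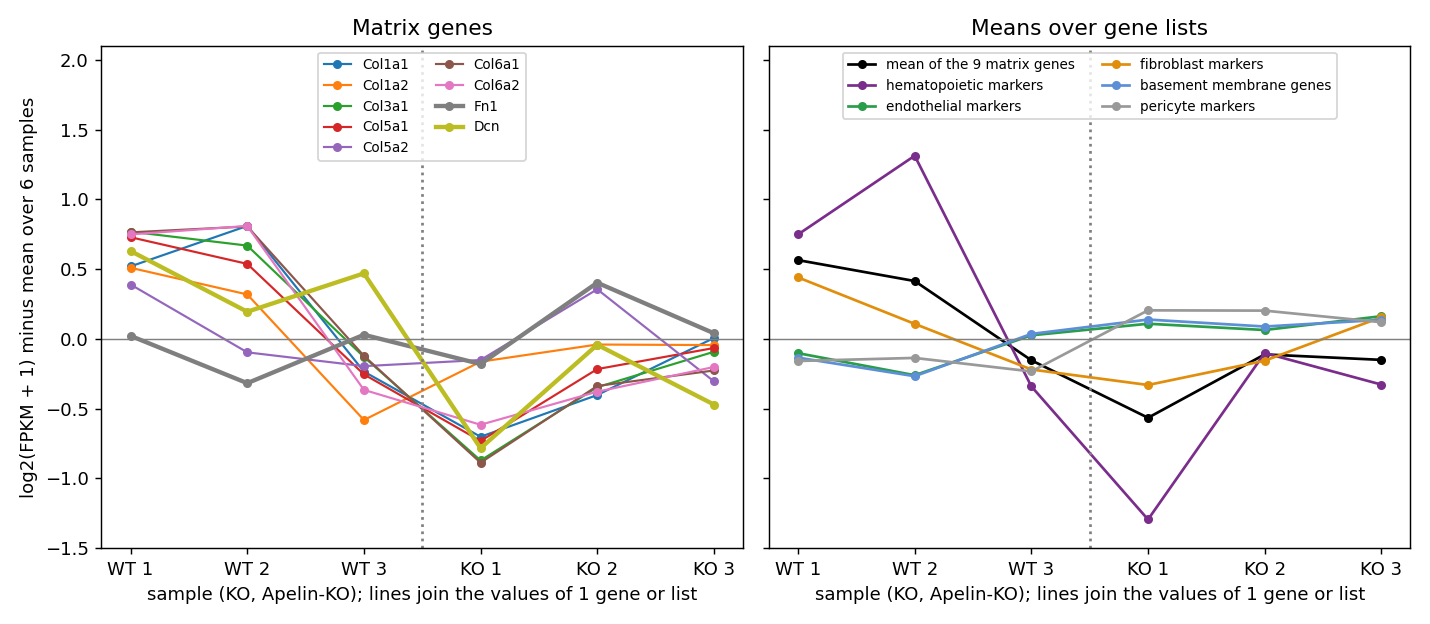
Levels in each sample as log2(FPKM + 1) minus the mean over the 6 samples, for the 9 tested matrix genes (left) and as means over gene lists (right); lines join the values of a gene or list and mark no order of samples. Most collagen chains are high in WT 1 and WT 2 and lowest in Apelin-KO 1, Dcn is also high in WT 3, and Fn1 is highest in Apelin-KO 2. The hematopoietic markers run from 1.31 in WT 2 to -1.29 in Apelin-KO 1.

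The profile of each gene over the 6 samples was then compared with the mean profile of the 9 tested members, as the root mean square difference of the centred log2 values. Each member contributes to this mean, and the comparison is a description. Col5a1 was the nearest member, at a difference of 0.13, followed by Col3a1 at 0.21 and Col1a1 at 0.22. Dcn stood at 0.32 and Col5a2 at 0.34, and Fn1 was the farthest at 0.47, with 71.2% of the other genes nearer to the mean profile. The 8 genes outside the group with the nearest profiles were Ncs1, Hoxa6, Ptprs, Ltbp3, Tgfbi, Src, Mmp11 and Metrnl, at differences between 0.04 and 0.09. Tgfbi, a secreted protein that binds collagen, was at 65.3, 59.0 and 39.4 FPKM in the WT samples against 25.0, 41.1 and 37.3 FPKM in the Apelin-KO samples. Mmp11, a matrix metalloproteinase known from tumor stroma, was at 4.61, 3.77 and 2.28 FPKM in the WT samples against 1.74, 2.21 and 2.73 FPKM in the Apelin-KO samples.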

How the data were processed

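Tumor ECs (CD31 positive, CD45 negative) were measured by RNA-sequencing in 3 WT and 3 Apelin-KO samples. The authors made stranded mRNA libraries, used TopHat with Bowtie2 on mm10 for single-end reads and deposited FPKM from Cufflinks, 1 value per gene symbol. The submitters' processing notes name TopHat2 2.1.1 and Cufflinks 2.2.1. The annotation and strand setting are not given in the sources used here, so reads of antisense genes may be included.

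FPKM were used as deposited. Genes averaging 1 FPKM or more were compared on log2(FPKM + 1) with limma 3.58.1 in R 4.3.3 (two-sided moderated test, no block, Benjamini-Hochberg over 10964 genes). Members, gene lists and the rule for named genes were chosen with earlier results of these data known. That rule took all members, Apln, list genes with an unadjusted p-value under 0.05 or else the 2 highest, and the 8 nearest profiles. Serpinh1, Sparc, Col4a1, Col4a2, Hspg2, Cspg4, Tagln, Mcam, Pdgfrb, Cthrc1, genes listed at 0, Fap and Mmp3 were named outside it or after their values were seen. Depth was estimated from 3742 genes with 1 annotated transcript, taking fragments as 200 bases long. Of their low values, 71.5% to 74.5% came within 0.1 of a whole read, and the method was off by at most 1.73% on simulated data. Tested on simulated data for this comparison over 10964 genes, limma called 75.5% of 2-fold and 94.5% of 4-fold changes at adjusted p under 0.05. That simulation changed 200 random genes at once and drew noise independently for each gene, whereas 1 gene was called in these data. The rates are averages over genes and do not show how often a change of these members would be called. Positions are from GENCODE on GRCm38, and promoters from RefSeq. Alternatives changed the pseudocount, the filter, the scaling, the variance, the block and the samples.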

Additional observations from a re-analysis of the deposited data

How the results depend on the processing

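None of the members reached an adjusted p-value under 0.05 in limma or in any of the 15 alternative fits. In these fits Dcn kept an unadjusted p-value under 0.05 in 15 of 15 (0.00111 to 0.0258), Col6a1 in 14 of 15, Col3a1 in 11 of 15, Col1a1 in 7 of 15 and Col6a2 in 6 of 15. Of 134 member values under the alternatives, 130 kept their direction. The reversed ones were close to 0: Col5a2 was -0.0014 with quantile normalization, and across the fits without each sample Col5a2 ranged from -0.11 to 0.26 and Col1a2 from -0.0491 to 0.50.

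The number of members with an unadjusted p-value under 0.05 was 5. Over all genes, 1033 had such a p-value in the same fit. A pseudocount of 0.1 gave 3 members (959 genes), and no filter on mean FPKM gave 3 (1452 genes, over a larger set). Only 1 (Dcn) remained with unmoderated variances. A pseudocount of 5 (1100 genes), a mean of at least 5 FPKM (727 genes, over a smaller set) and an intensity trend (1098 genes) each gave 6 members. The number ranged from 2 to 7 members without each sample. The number of members whose groups did not overlap was 2 with all samples and ranged from 2 to 7 without each sample, where fewer values overlap less readily. Over all genes, 1 had an adjusted p-value under 0.05. There were 2 under a pseudocount of 5, under no filter, with a mean of at least 5 FPKM and with an intensity trend, 0 with each gene's own variance (783 at an unadjusted p-value under 0.05), and from 0 to 3 without each sample. At an unadjusted p-value under 0.05 the number of genes ranged from 538 to 1233 without each sample. The causes of these shifts were not tested.

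With the replicate number as a block, 3 members had an unadjusted p-value under 0.05, as did 893 of all genes, and no call at an adjusted p-value changed. The samples share only a number, since the deviations of same-numbered samples correlated at -0.14, 0.21 and -0.02. The log2 ratio of Dcn to Lum, -0.23, was 0.54 with FPKM + 1 and ranged from -0.7898 to 0.71 without each sample. The other 4 ratios kept their direction in all 8 alternatives each. The neighbouring pairs of members that were apart were 3 in WT ECs and 4 in Apelin-KO ECs with all samples. Their number ranged from 3 to 8 in WT ECs and from 6 to 9 in Apelin-KO ECs without each sample. Fewer values per group overlap less readily, so a rise alone does not show dependence on a given sample.

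Read numbers are estimates, and genes under about 1 FPKM, among the members Lum, cannot be compared at this depth. The estimated reads cover counting error only.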

Other observations

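Fap, which encodes fibroblast activation protein, a membrane protease used as a marker of activated tumor fibroblasts, was chosen here after its values were seen. It was at 0.0780, 0.133 and 0.0430 FPKM in the WT samples against 0.468, 0.427 and 0.337 FPKM in the Apelin-KO samples, so that the groups did not overlap and the direction was opposite to that of Dcn, Col6a1 and Pdgfra. By the estimated depth this amounts to 2.1, 3.16 and 1.04 reads in the WT samples and 11.6, 11.5 and 8.42 reads in the Apelin-KO samples. With a mean under 1 FPKM Fap was not tested. Of the tested genes, all at 1 FPKM or more on average, 14.4% did not overlap. No such share was obtained for lower genes. Mmp3, a matrix metalloproteinase on the same list of fibroblast markers and also under 1 FPKM, did not overlap in the other direction. It was at 1.11, 0.416 and 0.477 FPKM in the WT samples against 0.133, 0.061 and 0.330 FPKM in the Apelin-KO samples. Like Lum, Fap and Mmp3 cannot be compared at this depth.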
